A study of Mus musculus with 2 samples.

Results

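Elastic fibres and the microfibrils on which they form were followed through 10 genes of the mouse colon: Eln, Fbn1, Fbln1, Fbln2, Fbln5, Mfap4, Mfap5, Emilin1, Emid1 and Ltbp4. They were chosen by name, with earlier results of these data known. All 10 are listed among the 17809 genes of the wild-type library and among the 15972 genes of the reporter library. Both tables hold single-cell RNA values. The wild-type library comes from the colon of C57BL/6 mice, with EpCAM-positive CD45-negative epithelial cells and EpCAM-negative CD45-negative cells sorted and mixed in equal parts, and was made with version 3 of the droplet kit. The reporter library comes from colonic mesenchymal cells of Pdgfra-H2B-eGFP mice, in which a nuclear green fluorescent protein marks cells that use the Pdgfra gene, and was made with version 2 of the kit. Both pools came from 3 female mice, 8 to 12 weeks old. No cell is assigned to a mouse, so each condition is 1 library without a replicate, no test across mice was possible, and every ratio below is a description with no p-value. The reporter sort keeps Pdgfra-positive cells, so smooth muscle cells, pericytes and endothelium were described in the wild-type library alone.

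Elastic fibres give tissues their recoil. Cells first lay down microfibrils built of fibrillin, and elastin is then brought to this scaffold with the help of fibulins and latent TGF-beta binding proteins and cross-linked by enzymes of the lysyl oxidase family. In hollow organs such as the gut these fibres are known from the connective tissue under the epithelium, from the muscle layers and from vessel walls, and the microfibrils also hold TGF-beta and BMP growth factors in store.

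A level below is the average over the cells of a class of the corrected count, a count of RNA molecules (UMIs) that the authors adjusted with SCTransform to a common sequencing depth. Totals per cell lay between 6120 and 16389 corrected counts in the 7495 wild-type cells and between 2314 and 4432 in the 4409 reporter cells, so levels are compared within a library and not between them. Cells were clustered without the 10 genes and without 31 related genes, and clusters were named from other marker genes with the ending "-like". The wild-type library held 1134 CBFs1-like and 557 CBFs2-like cells (crypt-bottom fibroblasts), 817 CTFs-like cells (crypt-top fibroblasts), 949 smooth muscle-like, 118 pericyte-like, 592 blood endothelial-like and 2478 epithelial-like cells. A set of 42 lymphatic endothelial-like cells was taken from the finer resolution of 0.8, since no cluster took that name at the main resolution. The reporter library held 2755 CBFs1-like, 853 CBFs2-like and 636 CTFs-like cells. The markers given next belong to the lists used for naming, so their levels describe the classes and do not check the names. In the wild-type library mean Pdgfra was 8.60 in the crypt-top and 2.29 in the crypt-bottom types, Myh11 was 22.2 in smooth muscle-like cells, Rgs5 was 33.8 in pericyte-like cells and Pecam1 was 9.28 in blood endothelial-like cells.

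Among the genes 3 stand for the main patterns found below, and the bases before their starts are shown so that the genes can be placed. Emid1 was highest in CTFs-like cells, Fbln1 was highest in CBFs-like cells, and Fbln5 was near even between them. RefSeq windows on GRCm38.p6 matched 7 of the 10 genes, and Eln, Mfap4 and Mfap5 had none in the table used. Capitals mark 2 motifs searched on both strands, the GC box GGGCGG and the E-box CANNTG. The Emid1 window, chr11:5152258-5152480 on the minus strand, was shortened by 27 bases that belong to an annotated Emid1 transcript, the Fbln1 window is chr15:85205699-85205948 on the plus strand, and the Fbln5 window is chr12:101819120-101819369 on the minus strand.
Emid1: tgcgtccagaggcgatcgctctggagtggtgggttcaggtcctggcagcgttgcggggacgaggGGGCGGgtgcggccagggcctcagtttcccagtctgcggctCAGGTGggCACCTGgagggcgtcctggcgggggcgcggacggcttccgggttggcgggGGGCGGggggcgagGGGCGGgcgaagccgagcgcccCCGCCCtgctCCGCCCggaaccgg
Fbln1: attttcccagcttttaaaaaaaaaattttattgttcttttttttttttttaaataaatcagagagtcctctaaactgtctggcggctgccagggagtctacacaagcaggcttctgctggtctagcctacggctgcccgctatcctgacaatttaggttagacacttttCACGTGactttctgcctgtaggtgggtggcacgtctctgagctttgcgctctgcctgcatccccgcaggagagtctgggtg
Fbln5: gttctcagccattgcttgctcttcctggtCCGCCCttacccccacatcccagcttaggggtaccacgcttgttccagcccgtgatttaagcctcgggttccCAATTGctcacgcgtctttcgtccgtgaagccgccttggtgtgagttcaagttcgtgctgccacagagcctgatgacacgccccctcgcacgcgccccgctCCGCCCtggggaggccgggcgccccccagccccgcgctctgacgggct
The printed windows, the first listed for each gene, differ in base composition. That of Emid1 is 76.7% G or C and holds 5 GC boxes and 2 E-boxes. The printed Fbln5 window is 65.2% G or C with 2 GC boxes and 1 E-box. The printed Fbln1 window is 46.4% G or C with 1 E-box and no GC box. Window 2 of Fbln1 is 62.4% G or C with 1 GC box and 2 E-boxes. Window 2 of Fbln5 is 49.6% G or C with neither motif, and that of Emid1 is 63.2% with 1 E-box. The contrast between Fbln1 and Fbln5 thus depends on the window. Of all 32851 windows of 250 bases in the table, 32.7% hold a GC box and 66.2% an E-box, and the median G or C content is 52.4%. The TATA motif TATAAA and the AP-1 motif TGANTCA, present in 12.4% and 6.75% of all windows, were in none of the 12 windows of the 7 genes. These are matches of letters and say nothing of a factor.

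Most of the genes had their highest mean in crypt-bottom fibroblasts. In the wild-type library the CBFs1-like or CBFs2-like class had the highest mean of 7 genes (Eln, Fbn1, Fbln1, Fbln2, Fbln5, Mfap4 and Ltbp4) among the 7 mesenchymal and endothelial classes. The share of all genes with their highest mean in either of these classes was not computed, so this count describes the chosen genes only. Mfap5 was highest in smooth muscle-like cells, and Emilin1 and Emid1 were highest in CTFs-like cells. The lowest class differed by gene: CTFs-like cells for Eln and Mfap5, pericyte-like cells for Fbln1, Fbln2, Fbln5, Emilin1 and Ltbp4, blood endothelial-like cells for Fbn1 and Mfap4, and CBFs2-like cells for Emid1. The highest class mean was 6.44 times the lowest for Ltbp4, 111 times for Mfap5 and 123 times for Emid1. By this ratio Ltbp4 had the narrowest range of class means and Emid1 the widest. The ratio does not measure restriction, since the lowest Emid1 mean, 0.0269, was near the 0.0157 of epithelial-like cells.

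**Figure D1:**
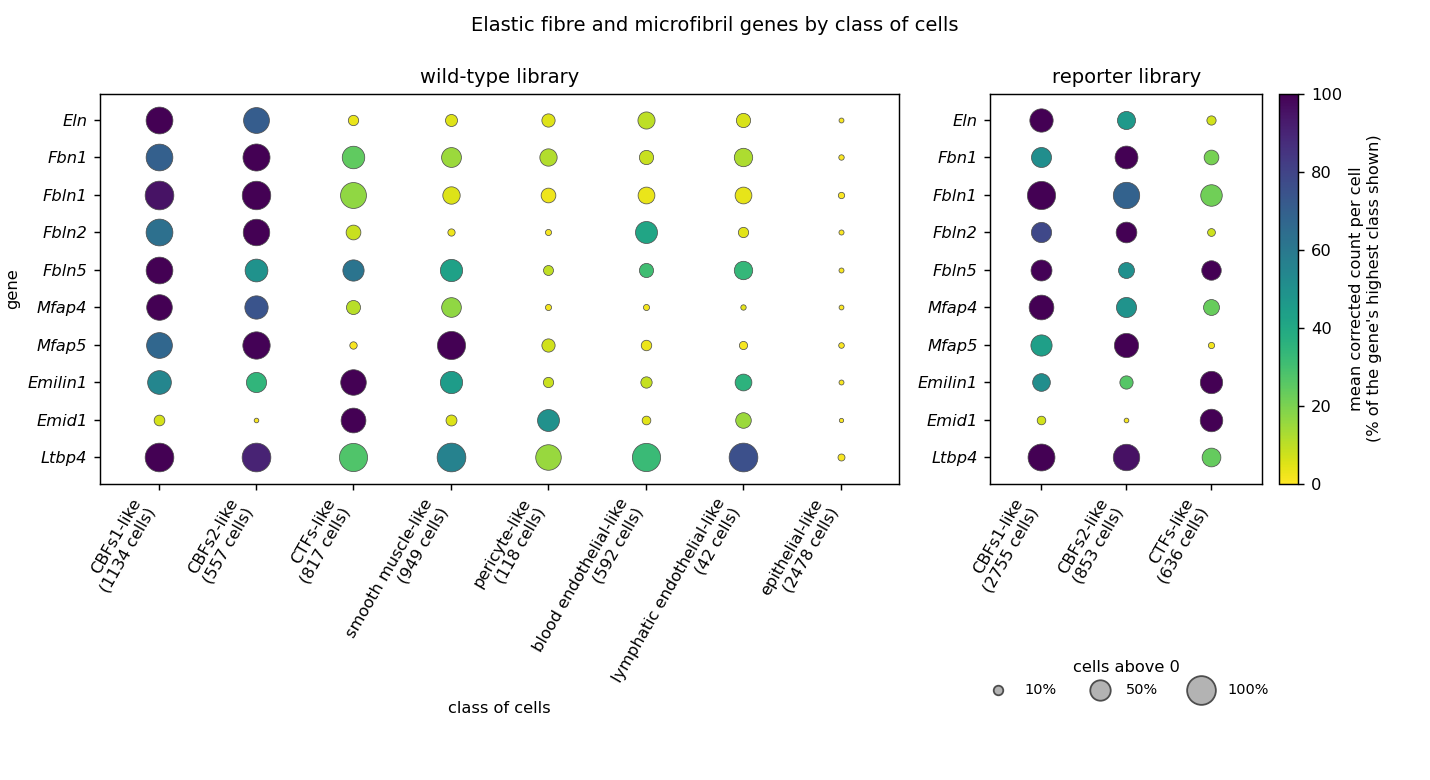
Dot plot of the 10 genes (rows) over classes of cells (columns) of the wild-type library (left) and the reporter library (right). Dot size is the share of cells with a value above 0 and colour the mean corrected count per cell as a percent of the gene's highest class in the panel. In the wild-type panel the darkest dots of 7 genes sit in the CBFs1-like and CBFs2-like columns and that of Mfap5 in the smooth muscle-like column. Those of Emilin1 and Emid1 sit in the CTFs-like column of both panels, and in the reporter panel Fbln5 is as dark there as in the CBFs1-like column.

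Eln (chromosome 5, 134702593 to 134747323, minus strand, GENCODE M21 on GRCm38) encodes elastin, the rubber-like core of the fibre. Its mean was 7.71 in CBFs1-like cells and 5.48 in CBFs2-like cells of the wild-type library, with values above 0 in 87.0% (95% CI 84.9 to 88.9) and 80.6% (77.1 to 83.8) of cells. Intervals on shares are exact binomial ones and cover counting error only. In no other mesenchymal or endothelial class did the mean reach 1. It was 0.777 in blood endothelial-like, 0.476 in lymphatic endothelial-like, 0.367 in smooth muscle-like, 0.364 in pericyte-like and 0.271 in CTFs-like cells, against 0.0730 in epithelial-like cells, which do not make elastin. Among CBFs1-like cells the values were broad, with a median of 5, quartiles of 2 and 10 and a 95th percentile of 25. The reporter library gave the same order, 1.96 in CBFs1-like, 0.906 in CBFs2-like and 0.132 in CTFs-like cells, with 65.6% (63.7 to 67.3), 38.9% (35.6 to 42.3) and 9.28% (7.14 to 11.8) of cells above 0.

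Fbn1 (chromosome 2, 125300594 to 125507993, minus strand) encodes fibrillin-1, the main strand of the microfibril. Unlike Eln it was higher in CBFs2-like than in CBFs1-like cells in both libraries, with wild-type means of 5.83 and 4.07 and reporter means of 1.56 and 0.795. CTFs-like cells kept a mean of 1.42 in the wild-type library, with 61.0% of cells above 0 (57.5 to 64.3), and 0.321 in the reporter library. Smooth muscle-like, lymphatic endothelial-like, pericyte-like and blood endothelial-like cells followed with 0.866, 0.714, 0.669 and 0.492. The shares of cells above 0 in smooth muscle-like (47.0%, 43.8 to 50.2), lymphatic endothelial-like (40.5%, 25.6 to 56.7) and pericyte-like cells (35.6%, 27.0 to 44.9) had intervals that overlapped between neighbours in that order.

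The 3 fibulins divided the stroma differently. Fbln1 (chromosome 15, 85205949 to 85286535, plus strand), whose product binds fibronectin, laminin and elastic fibres, was above 0 in 99.9% of CBFs1-like and 98.6% of CBFs2-like wild-type cells, with means of 23.6 and 24.9. Its mean fell to 4.09 in CTFs-like cells and lay between 0.593 and 1.30 in smooth muscle-like, pericyte-like and endothelial classes. Fbln2 (chromosome 6, 91212455 to 91272540, plus strand), a fibulin of microfibrils and basement membranes, had a mean of 5.48 in CBFs2-like and of 3.48 in CBFs1-like cells. Next after these came blood endothelial-like cells with 2.27, above the 0.466 of CTFs-like cells, while smooth muscle-like and pericyte-like cells had 0.135 and 0.0763. Fbln5 (chromosome 12, 101746565 to 101819055, minus strand), which tethers elastin to microfibrils and to cell-surface integrins, was the fibulin most alike across the fibroblasts. Its wild-type means were 2.86 in CBFs1-like, 1.76 in CTFs-like, 1.40 in CBFs2-like and 1.23 in muscle cells, and its reporter means were 0.897 in CBFs1-like, 0.901 in CTFs-like and 0.451 in CBFs2-like cells. The reporter CBFs1-like and CTFs-like means of Fbln5 thus differed in the third digit, although the share above 0 was 52.6% (50.7 to 54.5) in the first and 45.4% (41.5 to 49.4) in the second.

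The 2 microfibril-associated proteins parted at the muscle. Mfap4 (chromosome 11, 61485431 to 61488900, plus strand) encodes a fibrinogen-domain protein that binds elastin and fibrillin, and overlaps Mapk7 on the other strand. It was highest in CBFs1-like cells, with a mean of 7.15, followed by CBFs2-like cells with 5.30, smooth muscle-like cells with 1.17 and CTFs-like cells with 0.777. Blood endothelial-like and pericyte-like cells were close to the background, at 0.115 and 0.136, with 3.38% (2.08 to 5.17) and 3.39% (0.931 to 8.45) of cells above 0, against 1.69% (1.22 to 2.28) of epithelial-like cells. Mfap5 (chromosome 6, 122505845 to 122529290, plus strand) encodes a small glycoprotein of the microfibril surface. Smooth muscle-like cells had a mean of 9.14 with 95.9% of cells above 0 (94.4 to 97.1), CBFs2-like cells 9.08 with 90.5% (87.7 to 92.8), and CBFs1-like cells 6.11 with 80.2% (77.7 to 82.4). The first and second of these did not differ by their means, but the smooth muscle-like cells were the more uniform, with quartiles of 5 and 12 around a median of 9. CTFs-like cells were the lowest class for Mfap5 in both libraries, with means of 0.0820 and 0.0472, and their wild-type value was near the 0.0670 of epithelial-like cells.

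Both genes with an EMI domain were highest in CTFs-like cells among the mesenchymal and endothelial classes, with Emilin1 spread more broadly than Emid1. Emilin1 (chromosome 5, 30913402 to 30921277, plus strand) encodes a glycoprotein at the border between elastin and microfibrils. Its wild-type mean was 2.67 in CTFs-like cells, 1.44 in CBFs1-like, 1.20 in smooth muscle-like, 0.952 in lymphatic endothelial-like and 0.923 in CBFs2-like cells, while pericyte-like and blood endothelial-like cells had 0.212 and 0.238. Reporter means were 0.994 in CTFs-like, 0.508 in CBFs1-like and just 0.261 in CBFs2-like cells. Emid1 (chromosome 11, 5106265 to 5152257, minus strand) encodes a secreted protein with an EMI domain and collagen-like repeats, about which less is known. It was above 0 in 74.2% (71.0 to 77.1) of CTFs-like cells of the wild-type library with a mean of 3.31, and in 57.6% (48.2 to 66.7) of pericyte-like cells with a mean of 1.65. In CBFs1-like cells the share was 12.9% (10.98 to 14.96), and in CBFs2-like cells it was 1.44% (0.622 to 2.81), not above the 1.09% (0.719 to 1.58) of epithelial-like cells beyond counting error. The reporter library again had Emid1 in CTFs-like cells, with 61.2% (57.3 to 65.0) above 0, and in 1.52% (0.814 to 2.59) of CBFs2-like cells.

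Ltbp4 (chromosome 7, 27305136 to 27337692, minus strand) encodes a latent TGF-beta binding protein that acts with fibulin-5 in elastic fibre assembly. It was the one gene above 0 in more than 70% of the cells of all 7 classes of the wild-type library. Means ran from 16.6 in CBFs1-like cells and 15.02 in CBFs2-like cells through 12.5 in lymphatic endothelial-like, 9.25 in smooth muscle-like, 5.33 in blood endothelial-like and 4.59 in CTFs-like cells to 2.58 in pericyte-like cells. Epithelial-like cells had 0.146, with 4.84% of cells above 0. Reporter cells of the 2 CBFs-like classes had means of 2.79 and 2.67 and CTFs-like cells 0.662.

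Shares above 0 depend on depth, so each cell was also thinned to 2000 corrected counts. Thinning evens the corrected totals and not the sequenced depth, which is unknown, so it cannot remove that dependence in full. At 2000 corrected counts Eln was above 0 in 62.4% of CBFs1-like and 5.26% of CTFs-like wild-type cells. Mfap5 was above 0 in 79.1% of smooth muscle-like and 1.59% of CTFs-like cells, and Emid1 in 43.0% of CTFs-like, 36.4% of pericyte-like and 0.539% of CBFs2-like cells. Some neighbours changed places. Fbln2 was above 0 in 86.9% of CBFs1-like and 84.9% of CBFs2-like cells as deposited and in 46.6% and 61.0% after thinning. Fbln5 shares went from 62.5% of CBFs2-like, 59.4% of smooth muscle-like and 54.2% of CTFs-like cells to 24.6%, 22.0% and 29.9%.

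The comparison of crypt-top with crypt-bottom fibroblasts asks how far the elastic fibre genes separate the 2 fibroblast positions that the study set apart. Of the 10 genes, 7 were lower by 2-fold or more in CTFs-like cells of the wild-type library and 2 were higher, while 6.5% of the 9576 genes tested were that much lower and 5.05% higher. The largest gap was that of Mfap5, with a log2 ratio of -6.27, followed by Eln (-4.64), Fbln2 (-3.12), Mfap4 (-3.06), Fbln1 (-2.55), Ltbp4 (-1.81) and Fbn1 (-1.70). Emid1 was higher by 4.34 and Emilin1 by 1.07 on the log2 scale, and Fbln5 was under 2-fold (-0.44). The median log2 ratio of the 10 genes was -2.18 and that of all genes tested was -0.04. Since the 10 genes were chosen with earlier results of these data known, their contrast with all genes is a description only.

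The same calls came from the reporter library, which had other mice, another kit and another sort. Again 7 genes were lower and 2 higher, against 4.35% and 5.76% of 6685 genes, and the median log2 ratio was -1.98 for the 10 genes and 0.19 for all genes tested. In the order of the wild-type ratios the reporter ratios were -4.86 for Mfap5, -3.60 for Eln, -3.26 for Fbln2, -1.91 for Mfap4, -2.09 for Fbln1, -2.05 for Ltbp4 and -1.57 for Fbn1. Emid1 was higher by 3.97 and Emilin1 by 1.13 on the log2 scale. Fbln5 stayed under 2-fold, with a ratio of 0.19, the same as the median of all genes there. Leaving out the 2 reporter clusters of CBFs1-like cells led by cytokine and stress genes gave the same 9 calls.

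**Figure D2:**
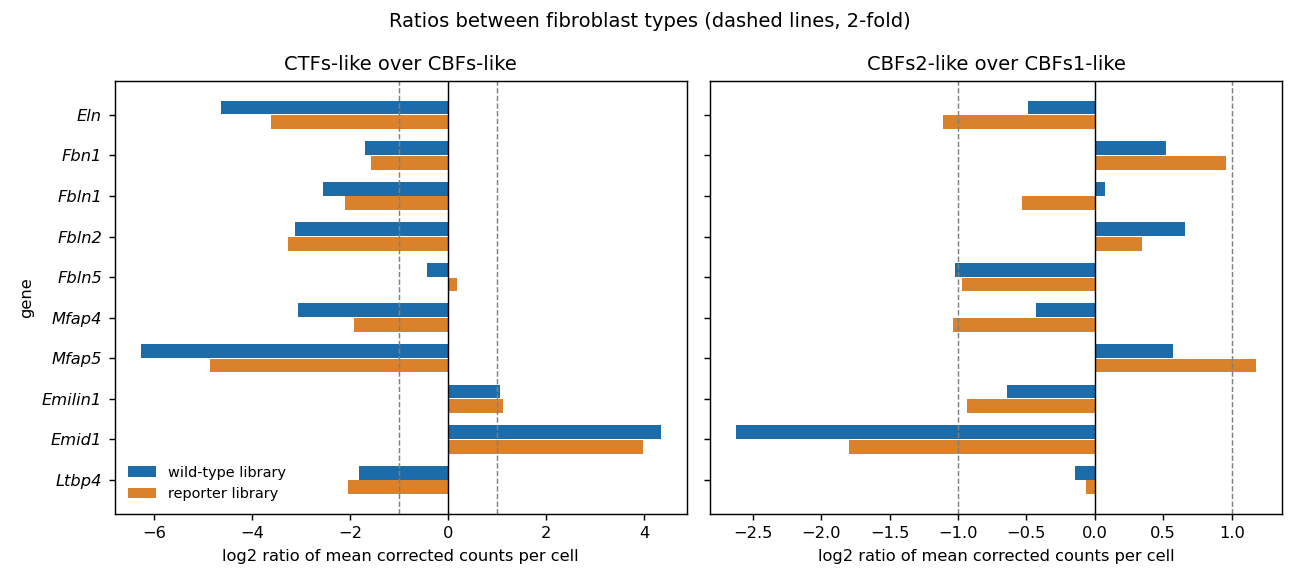
Log2 ratios of mean corrected counts per cell for the 10 genes, CTFs-like over CBFs-like cells (left) and CBFs2-like over CBFs1-like cells (right), with blue bars for the wild-type and orange bars for the reporter library and dashed lines at 2-fold. On the left the bars of both libraries point the same way for all genes but Fbln5, and on the right the bars of Fbln1 point apart.

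The 2 crypt-bottom types differed less. In the wild-type library 2 of the 10 genes were lower by 2-fold or more in CBFs2-like than in CBFs1-like cells, Emid1 (-2.62) and Fbln5 (-1.03), and none was higher, beside 3.53% of 9619 genes lower and 5.37% higher. Reporter cells gave 3 lower genes, Emid1 (-1.80), Eln (-1.11) and Mfap4 (-1.04), and 1 higher gene, Mfap5 (1.18), beside 5.27% of 6256 genes lower and 3.47% higher (3.97% and 4.17% after thinning). Of these calls, Mfap5 was at 0.93 without the CBFs1-like clusters led by cytokine and stress genes, Eln was at -0.83 with a resolution of 0.8, Mfap4 was between -0.998 and -0.92 under 4 alternatives, and Emid1 was under the filter on low values without those clusters and after thinning. Fbn1, Fbln2 and Mfap5 were on the CBFs2-like side in both libraries, and Eln, Fbln5, Mfap4, Emilin1 and Emid1 on the CBFs1-like side. Ltbp4 was near even, at -0.14 in wild-type cells and -0.06 in reporter cells, and its reporter sign turned under other settings (-0.09 to 0.07). Fbln1 was at 0.07 in wild-type cells and at -0.54 in reporter cells, where the median of all genes tested was -0.21.

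In smooth muscle-like cells no gene was higher than in all fibroblasts by 2-fold or more and 6 were lower, while 5.87% of 9596 genes were higher and 8.95% lower. Fbln2 (-4.35), Fbln1 (-3.74), Eln (-3.67), Emid1 (-2.71), Fbn1 (-2.04) and Mfap4 (-1.98) were the lower ones. Mfap5 came closest to the other side with 0.93, and Ltbp4, Emilin1 and Fbln5 stayed within 2-fold at -0.41, -0.52 and -0.82. Smooth muscle-like cells formed a cluster of 887 cells and another of 62 cells with fewer genes per cell (a median of 1690 against 2656), and Mfap5 was above 0 in 96.1% and 93.5% of their cells. Mean Mfap5 was 9.42 in the larger and 5.23 in the smaller cluster, and after thinning its shares were 81.1% and 51.6%. The 6 calls were the same with the larger cluster alone.

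In pericyte-like cells, which sit on small vessels, Ltbp4 and Emid1 were the genes above 0 in most cells, 78.8% and 57.6%. Against smooth muscle-like cells 1 gene was higher and 6 were lower by 2-fold or more, while 11.4% of 9296 genes were higher and 15.1% lower and the median of all genes was -0.19. Emid1 was higher by 3.18 on the log2 scale. Mfap5 (-3.81), Mfap4 (-3.02), Emilin1 (-2.45), Fbln5 (-2.14), Ltbp4 (-1.84) and Fbln1 (-1.12) were lower, and Eln (-0.01), Fbn1 (-0.37) and Fbln2 (-0.75) were not past 2-fold, all 3 being low in both classes. The class total as a base moved the split of all genes to 12.9% higher and 12.8% lower, and thinning to 15.5% and 10.8%, with the same 7 calls among the 10 genes.

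In blood endothelial-like cells 9 of the 10 genes were lower than in fibroblasts by 2-fold or more, beside 17.3% of 9640 genes lower and 11.9% higher (13.4% and 14.4% after thinning), and none was higher. Fbln2 was the exception, with a ratio of -0.37, and was above 0 in 58.1% (54.0 to 62.1) of these cells. The ratios of Ltbp4 and Fbln5 were -1.21 and -1.31, those of Eln, Emilin1, Fbn1 and Emid1 between -2.96 and -2.61, and those of Mfap5, Fbln1 and Mfap4 between -5.23 and -4.15.

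RNA of fibroblasts can reach the droplets of other cells, so the 10 genes were set beside 10 fibroblast marker genes. For the markers and for the 10 genes alike, the level in a class was set against the fibroblast class in which the gene was highest, a base chosen after values on the CBFs1-like base had been seen. In blood endothelial-like cells the markers lay between 1.69% and 5.84% of that base, with a summed level of 3.34% and no marker at 0. Fbln2 stood at 41.4%, Ltbp4 at 32.1%, Fbln5 at 30.5%, Eln at 10.1%, Emilin1 at 8.91% and Fbn1 at 8.44%, all above the marker range, while Emid1 (4.34%), Fbln1 (3.22%) and Mfap5 (2.88%) were inside it and Mfap4 (1.61%) was below. In smooth muscle-like cells the markers lay between 1.96% and 47.9% with a sum of 19.4%, and Mfap5 (101%) and Ltbp4 (55.7%) were above that range, with Emilin1 (45.1%) and Fbln5 (42.9%) inside it near the top and Emid1 at 5.22%. In pericyte-like cells the markers reached from 0.998% to 32.0% with a sum of 11.97%, and Emid1 alone was above them, at 49.9% of its CTFs-like mean. In lymphatic endothelial-like cells Ltbp4 (75.6%), Emilin1 (35.6%) and Fbln5 (33.3%) stood above markers that reached 15.04%, and Emid1 (15.1%) was level with the highest of them. The markers themselves differed widely within the muscle and pericyte classes, so their range is a comparison and not a measure of carry-over. The part of carried-over RNA in these values was not tested.

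**Figure D3:**
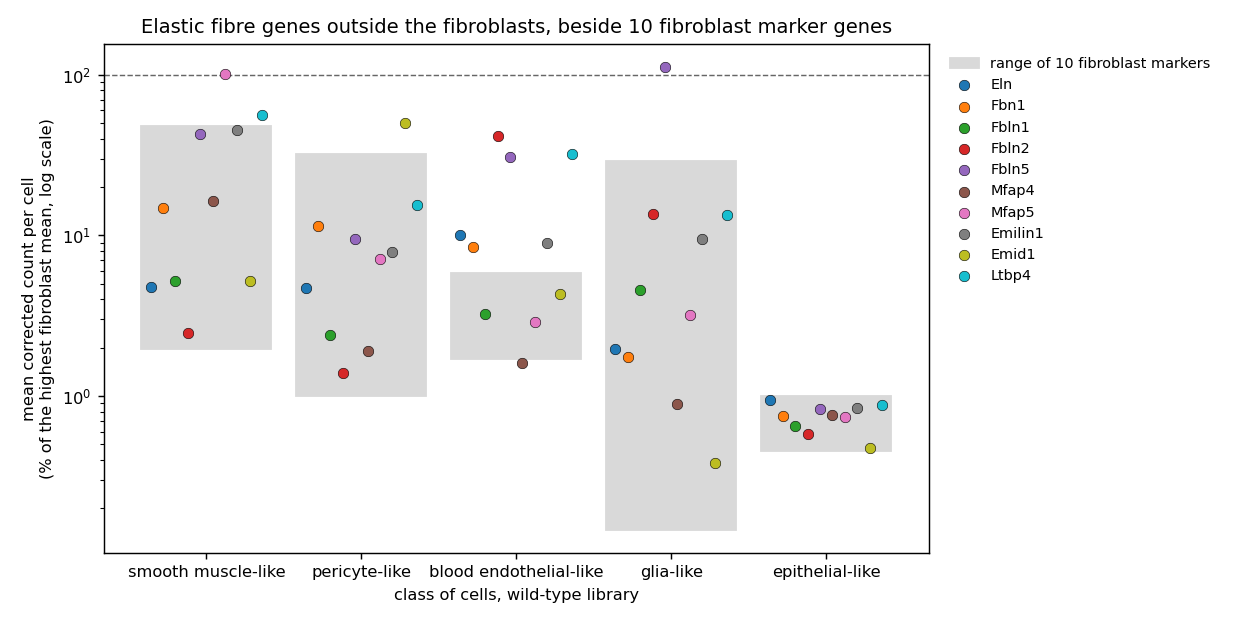
Mean corrected count of each of the 10 genes in classes outside the fibroblasts of the wild-type library, as a percent of the mean in the gene's highest fibroblast class on a log axis, with a grey box from the lowest to the highest of 10 fibroblast marker genes and a dashed line at the fibroblast level. Points above the box are Mfap5 and Ltbp4 in smooth muscle-like cells, Emid1 in pericyte-like cells, Fbln2, Ltbp4, Fbln5, Eln, Emilin1 and Fbn1 in blood endothelial-like cells and Fbln5 in glia-like cells, and none in epithelial-like cells.

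The blood endothelial-like cells came in a cluster of 494 cells led by Esm1, Rbp7 and Gja4 and one of 98 cells led by Selp, Madcam1 and Cxcl10, adhesion and chemokine genes known from venules. Fbn1 was above 0 in 64.3% (54.0 to 73.7) of the smaller cluster and 15.8% (12.7 to 19.3) of the larger one, with means of 1.18 and 0.354 (log2 ratio 1.71), and it was the 1 gene higher by 2-fold, beside 15.2% of 9193 genes. Fbln1 was the 1 gene lower (-1.29), beside 4.8%. Fbln2 was above 0 in 89.8% of the smaller and 51.8% (47.3 to 56.3) of the larger cluster, with means of 3.22 and 2.08. The smaller cluster also had more genes per cell, a median of 2677 against 2002, and after thinning the Fbn1 share was still higher in the smaller cluster, 23.5% against 6.48%, and so was the Fbln2 share, against 29.4% in the larger. The 42 lymphatic endothelial-like cells, with mean Prox1 of 2.29 and Lyve1 of 22.8, had Ltbp4 above 0 in all cells and Fbln2 in 11.9% (3.98 to 25.6).

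CTFs-like cells were split into 2 clusters in each library, and 3 of the 10 genes were past 2-fold between them in the same direction in both libraries. The share of all genes past 2-fold in the same direction in both libraries was not computed. In the wild-type library the 817 cells formed 1 cluster at the main resolution, of which 570 and 220 cells fell into 2 CTFs-like clusters at the resolution of 0.8. The larger was led by Aspn, Itm2a, Ptgis and Tagln. The smaller was led by haemoglobin genes, Fam105a, Tbxas1 and Fgf7. In the reporter library the clusters had 524 and 112 cells. The smaller one had a CTFs marker score of 0.680 against 0.446 for the next fibroblast type and none of its name's markers among its top 10 genes. With the 10 genes and the list left in the variable features a cluster of 236 cells led by Ptprr, Nrg1 and Cox4i2 could not be named, and with 15 principal components no second CTFs-like cluster was formed. Of the 50 genes most in favour of the smaller cluster in each library, 35 were shared among 6763 genes compared. For the 50 genes most in favour of the larger cluster 23 were shared, so agreement between the libraries was not particular to the 10 genes. Haemoglobin did not move alike: mean Hba-a1 was 5.55 in the smaller and 0.0386 in the larger wild-type cluster, against 0 and 0.00763 in those of the reporter library. Hba-a1 was the only haemoglobin gene of the marker lists found in the reporter library. Mean Hbb-bs, which that library does not list, was 15.7 in the smaller and 0.147 in the larger wild-type cluster. Summed smooth muscle markers were 26.8 in the larger and 4.6 in the smaller wild-type cluster, and 11.6 and 2.35 in the reporter clusters, and the smaller cluster had more genes per cell, a median of 2928 against 2270 and of 1798 against 1446.5. The part of any of these in the result was not tested.

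Mfap4 and Fbln5 belonged to the larger cluster. Mfap4 was above 0 in 30.7% (26.9 to 34.7) of its wild-type cells and 4.55% (2.20 to 8.20) of the smaller cluster, and in 33.2% (29.2 to 37.4) and 14.3% (8.39 to 22.2) of the reporter cells. Fbln5 means were 2.34 and 0.445 in the wild-type and 1.03 and 0.286 in the reporter library. Fbln2 went the other way, with means of 0.314 in the larger and 0.877 in the smaller wild-type cluster and 0.0305 and 0.286 in the reporter clusters. In log2 units the smaller over the larger cluster gave -3.10 and -2.02 for Mfap4, -2.37 and -1.82 for Fbln5 and 1.45 and 2.87 for Fbln2, wild-type first. Emid1 was higher in the smaller cluster by 1.41 in the wild-type library and by 0.54, under 2-fold, in the reporter library. These made 2 genes higher and 2 lower in the wild-type library, beside 9.63% and 3.11% of 9397 genes, and 1 higher and 2 lower in the reporter library, beside 10.6% and 2.95% of 7022 genes.

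**Figure D4:**
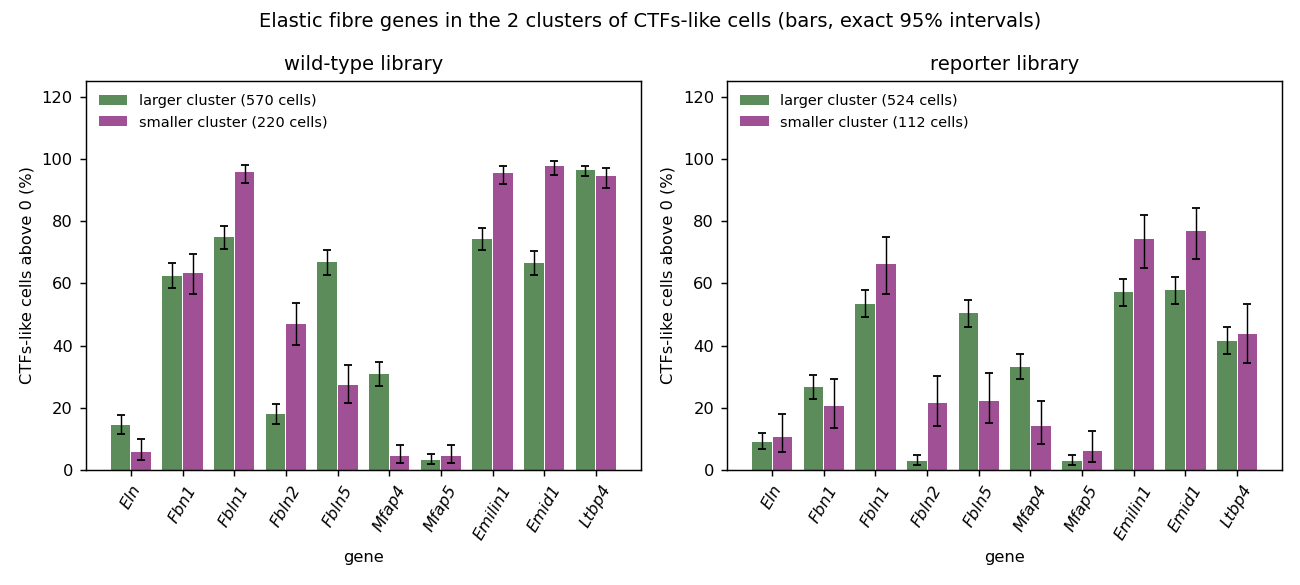
Share of CTFs-like cells with a value above 0 for each of the 10 genes in the larger (green) and the smaller (purple) cluster of the wild-type library (left) and the reporter library (right). Bars start at 0 and error bars are exact 95% intervals. In both panels the purple bar is the taller for Fbln1, Fbln2, Emilin1 and Emid1, and for Mfap5 with overlapping intervals, and the shorter for Fbln5 and Mfap4.

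In the pairs compared among the 3 CBFs1-like clusters of the reporter library none of the 10 genes was past 2-fold. With the low shares of all genes given beside each pair, this does not set the 10 genes apart. The third cluster was not compared with the first. Between the second cluster (1024 cells, led against the first by Cd9, Anxa2 and Capg) and the first (1198 cells, led by Cxcl2, Il6 and Fosb) the largest ratio was that of Mfap4, 0.83, with means of 4.41 and 2.48, beside 0.179% of 6141 genes higher and 3.37% lower. Between the third cluster (533 cells) and the second the ratios lay between -0.39 and 0.46, beside 9.68% of 7012 genes higher and 0.157% lower. Over all clusters of CBFs1-like cells the Eln means stayed between 1.80 and 2.10 and the Fbln1 means between 5.64 and 6.43.

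Counted cell by cell after thinning to 2000, a CBFs1-like cell of the wild-type library had on average 5.37 of the 10 genes above 0, a CBFs2-like cell 5.08, a CTFs-like cell 2.80, a smooth muscle-like cell 2.71, a blood endothelial-like cell 1.64, a pericyte-like cell 1.41 and an epithelial-like cell 0.0973. At least 5 of them were above 0 in 71.6% (68.9 to 74.2) of CBFs1-like and 65.5% (61.4 to 69.5) of CBFs2-like cells, but in 11.3% (9.17 to 13.6) of CTFs-like and 7.80% (6.17 to 9.69) of smooth muscle-like cells. The reporter shares were 54.2% (52.4 to 56.1) of CBFs1-like, 42.7% (39.3 to 46.1) of CBFs2-like and 8.49% (6.44 to 10.9) of CTFs-like cells.

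A list of 31 further genes, grouped by name or role, was described in the same way. It held other fibrillin and Mfap genes, other fibulins, other latent TGF-beta binding proteins, other EMI domain genes, lysyl oxidases, and ADAMTS and ADAMTS-like genes. A shared name, as among the Mfap genes, does not show that a product is part of the microfibril. The wild-type library lists 29 of these and the reporter library 28. Between CTFs-like and CBFs-like wild-type cells 23 passed the filter on low values, of which 1 was higher, 7 were lower and 15 were under 2-fold, beside 5.05% and 6.5% of all genes, with a median log2 ratio of -0.49. Among reporter cells 18 passed, with none higher, 5 lower (Emilin2 -3.01, Ltbp1 -2.15, Adamtsl5 -1.76, Loxl1 -1.34 and Adamtsl4 -1.18) and a median of -0.06, beside 5.76% of all genes higher and 4.35% lower. Of other fibrillins, Fbn2 was the higher one (2.57), with a mean of 0.193 in CTFs-like against 0.0242 in CBFs-like cells. Emilin2, another EMI domain gene, went against Emilin1 with a ratio of -4.20, and was higher in CBFs2-like than in CBFs1-like cells by 1.40 in wild-type and 1.66 in reporter cells. Loxl1, which cross-links elastin, was lower by a ratio of -1.83, with means of 0.993 and 3.54. The other lower genes were Adamtsl2 (-3.82), Adamtsl5 (-3.13), Ltbp1 (-1.38), Adamts10 (-1.19) and Adamtsl4 (-1.06).

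Smooth muscle-like cells differed from fibroblasts in both directions over the listed genes. Of 24 listed genes that passed, 6 were higher than in fibroblasts and 6 lower, with a median of -0.41, beside 5.87% of all genes higher and 8.95% lower and a median of -0.05. The higher ones were Hmcn1 (3.02), a long fibulin-related protein, the secreted protease Adamts6 (2.49), Thsd4 (2.48), which promotes fibrillin assembly, Mfap3l (2.25), Ltbp1 (1.53) and Fbn2 (1.34). The lower ones were Emilin2 (-3.16), Adamtsl2 (-2.44), Loxl1 (-1.90), Adamtsl5 (-1.05), Adamts10 (-1.03) and Mfap2 (-1.02). Mean Ltbp1 was 2.60 in the muscle class against 0.894 in fibroblasts. Within the muscle class Ltbp1 stayed below Ltbp4 (9.25), and Fbn2 (0.216) stayed below Fbn1 (0.866). In blood endothelial-like cells 18 of 22 listed genes were lower and 1 was higher, Mmrn2, an endothelial EMI domain gene named here after its value was seen, with a mean of 3.38 against 0.0179 in fibroblasts. Pericyte-like cells had 15 of 22 lower than smooth muscle-like cells and none higher, beside 15.1% and 11.4% of all genes, and for blood endothelial-like cells these shares were 17.3% lower and 11.9% higher.

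For each of the 10 genes, the genes with the most similar level over the 10 named classes of the wild-type library were taken by Pearson's r of log2 class means among 10367 others. The r values describe 10 points from 1 library and carry no test. Fbln1 was most like Htra3 (0.99) and Clec3b (0.98), Mfap4 like Svep1 (0.98) and Wnt2b (0.97), Eln like Wnt2 (0.94) and Arsi (0.90), and Fbn1 like Kdelc2 (0.95). The others were Heg1 for Fbln2 (0.92), Nfic for Fbln5 (0.96), Abi3bp for Mfap5 (0.98), Bmp4 for Emilin1 (0.99), Procr for Emid1 (0.92) and Ackr3 for Ltbp4 (0.97). Within the set the highest r was that of Fbn1 and Mfap4 (0.90), and Emid1 had its highest with Emilin1 (0.41) and r values between -0.21 and 0.25 with the other 8 genes.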

How the data were processed

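The authors aligned reads to mm10 and counted UMIs with Cell Ranger, then used Seurat 3.1 under R 3.6.2 to filter them and to run SCTransform, per the paper's methods and the submitters' notes. The deposited score values are whole-number corrected UMI counts, and the deposited natural log values are ln(1 + corrected count). This reading rests on the values themselves, so the sequenced depth is unknown and no count model was used. Of 7495 wild-type and 4409 reporter cells, 7394 and 4407 lay within the study's stated filters and all were kept. Cells were clustered in Seurat 5.3.0 (R 4.3.3) with 30 principal components and resolutions of 0.45 and 0.3, without the 10 genes and 31 related genes. Class ratios used a pseudocount of 0.01 and genes with a mean of both classes of at least 0.05, and 2-fold was the limit for a call. On the log2(value + pseudocount) scale changes of low genes are understated. Names needed marker genes fixed in lists, and the rule that scores them was revised after clusters were seen. Scrublet called 7 and 5 cells (0.0934% and 0.113%), too few to have worked, and doublets were kept. Each cell was thinned to 2000 to compare shares. The 1 barcode found in both libraries was kept. The ratio calculation was run on simulated counts with planted changes, which checks the calculation and holds no variation between mice or cells beyond counting error. Python 3.11.15, scipy 1.17.1, scanpy 1.11.5 and matplotlib 3.10.9 were used. GENCODE symbols matched 97.7% of wild-type and 97.6% of reporter genes. The 10 genes, the lists and the named genes (the 10, listed genes past 2-fold in CTFs-like or smooth muscle-like cells, and the genes most like each) were chosen with earlier results of these data known. Alternatives changed the resolution, components, cells kept, scaling, pseudocount and filter.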

Additional observations from a re-analysis of the deposited data

How the results depend on the processing

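No paired analysis was possible because each condition is 1 library. Of 74 counts of genes past 2-fold recomputed under other settings, 67 stayed within 1.5 times the reported count, and no log2 ratio of a called gene changed sign. Of the 10 genes, 9 were past 2-fold between CTFs-like and CBFs-like cells in the wild-type library under all 10 alternatives. In the reporter library the count was 9 except for 8 with a pseudocount of 0.1, where Emilin1 was at 0.99. The comparison of CBFs2-like with CBFs1-like cells was the one that moved. In the wild-type library the count of 2 became 1 with resolution 0.8, with 15 principal components, with the 10 genes and the list left in the variable features, without cells of high mitochondrial values, after thinning and with a pseudocount of 0.1. Fbln5 crossed the limit in 5 of these, at -0.98 to -0.95, and after thinning Emid1 fell under the filter on low values. In the reporter library the count of 4 became 2 with a pseudocount of 0.1 and which genes were called changed with the setting. Emid1 ranged from -2.14 to -0.69, Mfap5 lost its call (0.93) without the cytokine and stress clusters, Eln (-0.83) at resolution 0.8 and Mfap4 under 4 alternatives. Fbn1 gained a call under 5 (1.05 to 1.12), Emilin1 at both other resolutions (-1.24 and -1.50), and Fbln5 at resolution 0.8 (-1.03) and without those clusters (-1.17). Thinning moved the median log2 ratio of all genes from -0.19 to 0.01 for pericyte-like over smooth muscle-like cells and from -0.17 to 0.05 for blood endothelial-like cells over fibroblasts, with the same calls of the 10 genes. Without cells of high mitochondrial values Fbln1 lost its call in pericyte-like cells (-0.92). Another kind of limit is the pooling of 3 mice per library and the 118 pericyte-like and 42 lymphatic endothelial-like cells, for which shares have wide intervals. The median of 3150 corrected counts per reporter cell, against 8972 per wild-type cell, limits low genes such as Emid1 and Fbln2 there.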

Other observations

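Among classes outside the fibroblasts, muscle and vessels, the 79 glia-like cells stood out for Fbln5, which was above 0 in 75.9% (95% CI 65.0 to 84.9) of them with a mean of 3.19, or 111% of its mean in CBFs1-like cells, its highest fibroblast class. After thinning it was above 0 in 53.2% of glia-like cells and 41.3% of CBFs1-like cells. On that base the 10 fibroblast markers lay between 0.147% and 28.8% in these cells, with a summed level of 7.90%. Fbln2 (13.6%), Ltbp4 (13.4%) and Emilin1 (9.47%) were inside that range. Ltbp4 was above 0 in 74.7% (63.6 to 83.8) of glia-like cells.

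In the 20 interstitial cells of Cajal-like cells Fbln5 was above 0 in 70.0% and Emilin1 in 45.0%. An unnamed cluster of 101 cells with pericyte and endothelial genes, and a median of 3849 genes per cell, had Fbln2 above 0 in 72.3% and Emid1 in 66.3% of its cells. The 485 unnamed cells led by haemoglobin and mitochondrial genes had Fbln1 above 0 in 68.2% of cells with a mean of 1.19. These cells had a median of just 1741 genes, and after thinning the Fbln1 share was 23.1%. In the reporter library the 52 epithelial-like cells had fibroblast markers at 31.8% of the CBFs1-like sum and could not serve as a background.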
